A study of Mus musculus and synthetic RNA with 74 samples.

Results

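The data described here are the levels of 10 imprinted mouse genes, H19, Igf2, Igf2r, Peg3, Snrpn, Cdkn1c, Peg10, Mest, Plagl1 and Grb10, in preimplantation embryos. The genes were chosen by symbol, all 10 were listed at both stages, and the tables held 20330 genes at E2.5 (morula) and 21199 at E3.5 (blastocyst), 21890 in all. RNA of single embryos was sequenced from crosses between mice heterozygous for a Mettl16 allele that carries an inserted stop cassette in the third exon, in 1 mutant line derived from B6D2F1/J zygotes and bred to C57BL/6JRj. The E2.5 embryos were 5 WT, 14 HET and 12 KO, and the E3.5 embryos were 18 WT, 9 HET and 12 KO. METTL16 is an RNA methyltransferase that places N6-methyladenosine on structured RNAs.

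For each gene the tables gave 1 mean over all 31 embryos at E2.5 and 1 mean over all 39 embryos at E3.5, with WT, HET and KO pooled. No spread between embryos and no value per genotype was used here, so every value below is the authors' mean, and no test was possible. The 3 genotypes made up different parts of the 2 means, so a stage difference and the changed mix of genotypes cannot be told apart. The 2 stages were also normalized separately. For comparison between them each gene's mean was divided by the table total, 23557112 at E2.5 and 27145016 at E3.5, and is given in parts per 1000000 of that total (ppm). Means of single exons and introns are given as normalized counts and were not rescaled between the stages. Grb10, for example, had summed exon means of 260 and 278, but 6.28 and 7.97 ppm, so small differences in such counts can change with the scaling. A gene counted as higher or lower at 2-fold or more, with 1 ppm or more in either stage. Among all 12522 genes above that minimum the median log2 ratio of E3.5 to E2.5 was 0.41, and the genes' ratios are also given relative to it where that changes a direction. Fewer cells of a type and less RNA per cell cannot be told apart in whole embryos.

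An imprinted gene is expressed mainly from the allele of 1 parent. In many cases, though not all, the choice of allele follows DNA methylation laid down at imprinting control regions in the egg or the sperm. That methylation is kept while most of the genome loses methylation before implantation. Many imprinted genes act on fetal and placental growth. H19, Igf2r, Cdkn1c and Grb10 are known as maternally expressed (Grb10 in most tissues other than neurons), and Igf2, Peg3, Snrpn, Peg10, Mest and Plagl1 as paternally expressed. The tables held totals of both alleles, so nothing here measures imprinting itself. An early embryo also holds RNA stored in the egg, which the means do not separate from new transcripts.

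Cell type markers, named after their values were seen, differed between the stages. At E3.5, 4 of 5 trophectoderm markers were higher by 2-fold or more, where 35.1% of all genes were, with Krt8 going from 27.6 to 1136 ppm and Cdx2 from 7.27 to 71.5, while Tfap2c went from 224.1 to 68.1. Of 4 inner cell mass markers Nanog and Sox2 were higher, Pou5f1 was lower (382.8 and 129.9 ppm) and Tdgf1 lay within 2-fold. Of 4 primitive endoderm markers Pdgfra and Sox17 were higher, Gata4 was lower (53.8 and 9.32 ppm) and Gata6 lay within 2-fold. All 5 oocyte genes were lower, where 18.9% of all genes were, Zp3 from 67.4 to 3.84 ppm. None of 5 cumulus cell markers reached 1 ppm at either stage, with Ptx3 not listed at either stage and Foxl2 not at E2.5, and the listed values between 0.00223 and 0.27 ppm. Of 4 oviduct epithelium markers, Ovgp1 went from 13.6 to 0.931 ppm and Pax8 from 1.19 to 0.152, and Foxj1 stayed at or below 0.0143. The fourth, Epcam, which embryonic epithelium also expresses, went from 57.3 to 1485. The part of these cells and of stored egg RNA in the levels below was not tested. Mettl16 itself had a mean of 777.8 normalized counts at E2.5 and 669.5 at E3.5, over embryos of all 3 genotypes.

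Of the 10 genes, 3 have more than 1 annotated start in the exon table with RefSeq sequence before each, and the reads in the first exons differed between these starts. The 200 bases before each start are shown (RefSeq, GRCm38.p6, read on the gene's strand, 5′ to 3′) with CpG dinucleotides, the sites of DNA methylation, in capitals.
Igf2, chr7:142666817-142667016, minus strand: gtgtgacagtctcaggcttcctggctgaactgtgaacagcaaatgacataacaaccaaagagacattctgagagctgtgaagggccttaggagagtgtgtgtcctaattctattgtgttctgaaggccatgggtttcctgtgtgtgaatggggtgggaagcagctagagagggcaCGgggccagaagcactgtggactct
Igf2, chr7:142661272-142661471, minus strand: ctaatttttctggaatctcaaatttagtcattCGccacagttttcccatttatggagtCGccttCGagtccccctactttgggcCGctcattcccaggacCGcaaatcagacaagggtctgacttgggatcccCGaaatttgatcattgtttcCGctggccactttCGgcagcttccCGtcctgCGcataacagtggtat
Igf2, chr7:142658805-142659004, minus strand: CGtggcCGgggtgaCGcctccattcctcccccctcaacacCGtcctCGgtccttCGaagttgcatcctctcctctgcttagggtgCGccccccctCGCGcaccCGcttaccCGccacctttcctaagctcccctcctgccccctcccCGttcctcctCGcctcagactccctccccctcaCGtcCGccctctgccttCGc
Igf2, chr7:142657497-142657696, minus strand: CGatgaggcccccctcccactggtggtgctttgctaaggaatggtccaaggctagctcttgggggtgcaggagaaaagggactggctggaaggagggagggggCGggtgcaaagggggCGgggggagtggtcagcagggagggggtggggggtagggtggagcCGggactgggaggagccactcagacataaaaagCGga
Mest, chr6:30733306-30733505, plus strand: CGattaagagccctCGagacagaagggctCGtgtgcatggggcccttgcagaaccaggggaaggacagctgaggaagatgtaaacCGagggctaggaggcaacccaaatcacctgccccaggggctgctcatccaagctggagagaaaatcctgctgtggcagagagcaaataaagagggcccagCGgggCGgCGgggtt
Mest, chr6:30737850-30738049, plus strand: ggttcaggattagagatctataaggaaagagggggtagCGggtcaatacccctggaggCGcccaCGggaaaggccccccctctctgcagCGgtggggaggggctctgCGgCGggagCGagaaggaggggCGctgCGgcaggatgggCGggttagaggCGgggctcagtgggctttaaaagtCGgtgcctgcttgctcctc
Grb10, chr11:12037421-12037620, minus strand: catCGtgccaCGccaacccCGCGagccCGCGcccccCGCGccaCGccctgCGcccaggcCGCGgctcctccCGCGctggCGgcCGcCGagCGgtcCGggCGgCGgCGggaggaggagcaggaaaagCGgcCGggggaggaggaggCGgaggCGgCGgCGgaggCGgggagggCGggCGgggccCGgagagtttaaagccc
Grb10, chr11:12027972-12028171, minus strand: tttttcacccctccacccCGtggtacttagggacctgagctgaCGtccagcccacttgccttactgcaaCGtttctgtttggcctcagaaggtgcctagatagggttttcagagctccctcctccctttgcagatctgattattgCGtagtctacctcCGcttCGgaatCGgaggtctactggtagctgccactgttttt

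The 4 Igf2 windows held 1, 10, 16 and 5 CpG, the Mest windows 7 and 12, and the Grb10 windows 32 and 7. The motif searched was the pair CG, which reads the same on both strands, and the median over 32851 RefSeq promoter windows of 200 bases was 5. Of all windows, 1.77% held at least as many CpG as the one before the first Grb10 start. At least 10 CpG were found in 34.2% of windows, at least 12 in 29.4% and at least 16 in 20.4%. The windows with at least 7 made up 42.5%, those with at least 5 50.8% and those with at least 1 89.4%. Promoter windows were matched for 7 of the 10 genes, H19, Cdkn1c and Peg10 being the others.

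Of the genes, 6 reached 1 ppm at E2.5 and 7 at E3.5, where 54.3% and 55.1% of all listed genes did. At either stage 8 did so, and Peg10 and Plagl1 at neither. Of these 8, H19, Igf2 and Mest were higher at E3.5 by 2-fold or more, against 35.1% of all genes tested, and Igf2r, Snrpn and Cdkn1c were lower, against 18.9%. Peg3 and Grb10 lay within 2-fold. By summed exon means H19 was below the minimum (0.947 ppm at E3.5) and Peg3 was past 2-fold. The median log2 ratio of the 8 was 0.36, close to that of all genes. When the median ratio of all genes was set to 1, the same 6 genes stayed past 2-fold, while the split of all genes past 2-fold went from 65.0% higher to 50.8% higher.

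**Figure D1:**
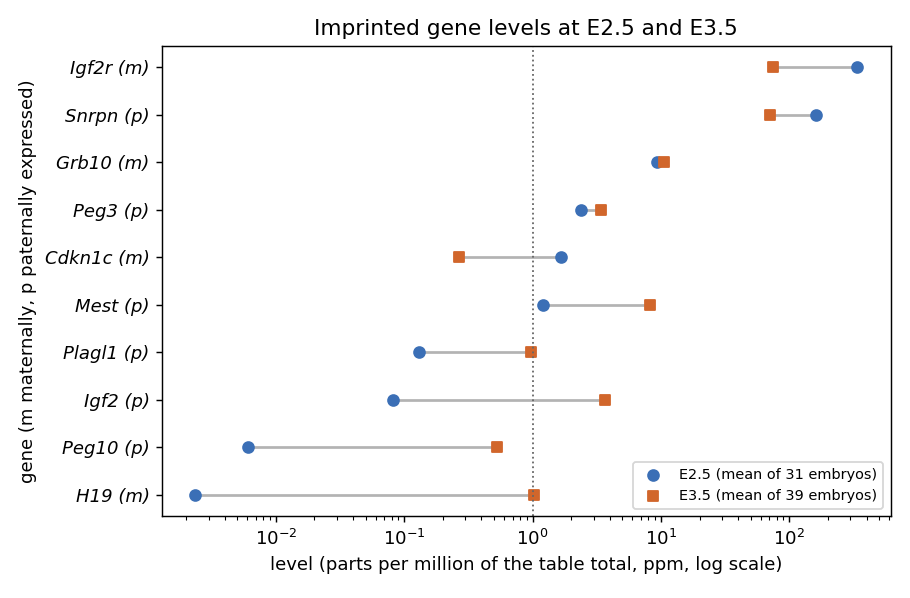
Level of each gene ppm of the table total (log scale) at E2.5 (circles) and E3.5 (squares), each point a mean over all embryos of that stage without a spread; m and p give the allele known to be expressed, and the dotted line marks 1 ppm. Igf2r and Snrpn stand highest at both stages and move down, whereas H19, Peg10, Igf2, Plagl1 and Mest, the lowest 5 at E2.5, move up and Cdkn1c moves down.

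Igf2r, the receptor for mannose 6-phosphate and IGF2, which clears IGF2 by carrying it to the lysosome, had a mean of 7999.9 normalized counts at E2.5 and 2022 at E3.5. This is 339.6 and 74.5 ppm, 4.56-fold lower at E3.5. It was above 97.6% of listed genes at E2.5 and 89.1% at E3.5. Snrpn encodes SmN, a core protein of spliceosomal snRNPs. Its mean was 3796 at E2.5 and 1924 at E3.5, or 161.1 and 70.9 ppm, 2.27-fold lower. By summed exon means it was at 434.8 and 183.8 ppm, above Igf2r at E2.5 (336.3), with a log2 ratio of -1.24. Snurf, which is read from the same transcript and shares its exons with Snrpn, was listed at 140.9 and 65.5 ppm, and how Salmon divided the reads between both names is uncertain. Igf2r and Snrpn together made up 97.1% of the summed level of the 10 genes at E2.5 and 83.5% at E3.5, and the sum itself was 515.5 and 174.2 ppm.

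Cdkn1c, which encodes the cyclin-dependent kinase inhibitor p57, had a mean of 39.1 at E2.5 and 7.31 at E3.5. It was 6.17-fold lower at E3.5 (1.66 and 0.269 ppm) and moved from above to below the minimum. All 5 of its listed exons had a lower mean at E3.5, with 5.74% to 28.6% of their E2.5 mean. The lower 2-fold calls thus held 2 of the 4 maternally and 1 of the 4 paternally expressed genes above the minimum, beside 18.9% of all genes.

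Igf2, the growth factor that drives fetal and placental growth, had a mean of 1.92 at E2.5, above 23.3% of listed genes, and reached 99.2 at E3.5. In ppm this is 0.0817 and 3.66, a 44.8-fold difference, larger than the ratio of 98.1% of all genes. H19, the non-coding RNA next to Igf2 that is expressed from the other parental allele, had a mean of 0.0556 at E2.5 and 28.1 at E3.5 (0.00236 and 1.04 ppm). Over the 31 embryos the E2.5 mean comes to 1.72 normalized counts, so no ratio is given, but H19 was past 2-fold also with 3 counts over those embryos in its place. Ins2, at the far side of Igf2, was at 0.0231 and 0.0123 ppm. H19 and Igf2 were thus both low at E2.5 and both higher at E3.5.

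Mest, a paternally expressed gene for a protein of the alpha/beta hydrolase fold, had a mean of 28.4 at E2.5 and 224.0 at E3.5. This is 1.21 and 8.25 ppm, 6.84-fold higher. Copg2, which lies on the opposite strand and overlaps the 3′ end of Mest, was listed at 3.58 and 18.2 ppm, and reads of both genes there cannot be told apart in libraries without strand. Peg10, a gene derived from a retrotransposon and needed for the placenta, had a mean of 0.143 at E2.5 and 14.4 at E3.5 (0.00606 and 0.529 ppm). Plagl1, which encodes a zinc finger transcription factor, had a mean of 3.09 and 26.6 (0.131 and 0.979 ppm). Both were below 1 ppm at both stages and so entered no count, although their log2 ratios were 6.45 and 2.90. The E2.5 mean of Peg10 comes to only 4.43 normalized counts over the 31 embryos. With 1 ppm added at each stage the log2 ratios were 0.60 and 0.81.

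Peg3, a paternally expressed gene for a zinc finger protein, had a mean of 56.2 at E2.5 and 93.3 at E3.5. This is 2.38 and 3.44 ppm, a log2 ratio of 0.53. Grb10, an adaptor protein that dampens insulin and IGF1 receptor signalling, had a mean of 219.8 and 288.8, or 9.33 and 10.6 ppm, a log2 ratio of 0.19. Relative to the median of all genes Grb10 was at -0.22, so its direction depends on the scaling, and it was within 2-fold. Peg3 was within 2-fold in the gene table, but past it by summed exon means (1.67 and 3.45 ppm, log2 ratio 1.05).

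Levels of different genes were compared per kilobase of the longest annotated transcript. On that scale the order at E2.5 was Snrpn (77.6 ppm per kb), Igf2r (38.0), Grb10 (1.83), Cdkn1c (0.855), Mest (0.453), Peg3 (0.36), Plagl1 (0.0249), Igf2 (0.0202), H19 (0.00103) and Peg10 (0.000909). The first 4 were above the median of all genes with a length, 0.624. At E3.5 the order was Snrpn (34.1), Igf2r (8.34), Mest (3.10), Grb10 (2.09), Igf2 (0.905), Peg3 (0.519), H19 (0.453), Plagl1 (0.186), Cdkn1c (0.139) and Peg10 (0.0794), and the first 5 were above the median of 0.797. Without a spread between embryos it cannot be said which neighbours in these orders differ. Reads did not lie evenly along the genes, as the last exons below show, and this scale takes no account of it. How reads were divided between Snrpn and Snurf is also uncertain. By 2-fold calls, 1 of the 4 maternally expressed genes was higher and 2 were lower, all 4 being above the minimum. Of the 6 paternally expressed genes only 4 were above the minimum, Peg10 and Plagl1 not being called, and 2 were higher and 1 was lower. Of all genes 35.1% were higher and 18.9% lower, and a difference between the parental groups was not tested.

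The exon table placed the reads along each gene, and it showed a difference between the stages that reached far beyond the imprinted genes. The last exon held a median of 23.9% of a gene's exon counts at E2.5 (12319 genes) and 40.5% at E3.5 (12316 genes). From first to last exon, the log2 ratio of E3.5 to E2.5 differed by a median of -1.86 over 7107 genes with 5 or more exons, so first exons were lower at E3.5 relative to last exons. In Igf2r the last exon's share went from 27.3% to 55.0%, in Grb10 from 55.4% to 84.4%, in Peg3 from 68.8% to 85.9% and in Mest from 18.9% to 36.5%, whereas Snrpn stayed at 5.76% and 6.35%. A change between stages in a first or middle exon therefore includes this shift. Copg2 overlaps the 3′ end of Mest and Peg3os overlaps Peg3, both on the other strand, and both were listed higher at E3.5. Their reads are not separated from those of Mest and Peg3. With the last exon alone, as a share of all genes' last exons, Igf2r had a log2 ratio of -1.93, Snrpn of -1.60 and Cdkn1c of -2.08, and Igf2 and Mest of 6.10 and 3.09, on the same side as for the whole gene. The last exon of H19 had 0.0527 normalized counts at E2.5 and 18.5 at E3.5, and no ratio is given. The median over 11970 genes was 0.46 on that measure. It also brought Peg10 and Plagl1 over the minimum, with log2 ratios of 6.15 and 2.88, while Grb10 was at 0.43 and Peg3 at 0.84. The last exon of Peg10 had only 0.148 normalized counts at E2.5, so the size of its ratio is uncertain.

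**Figure D2:**
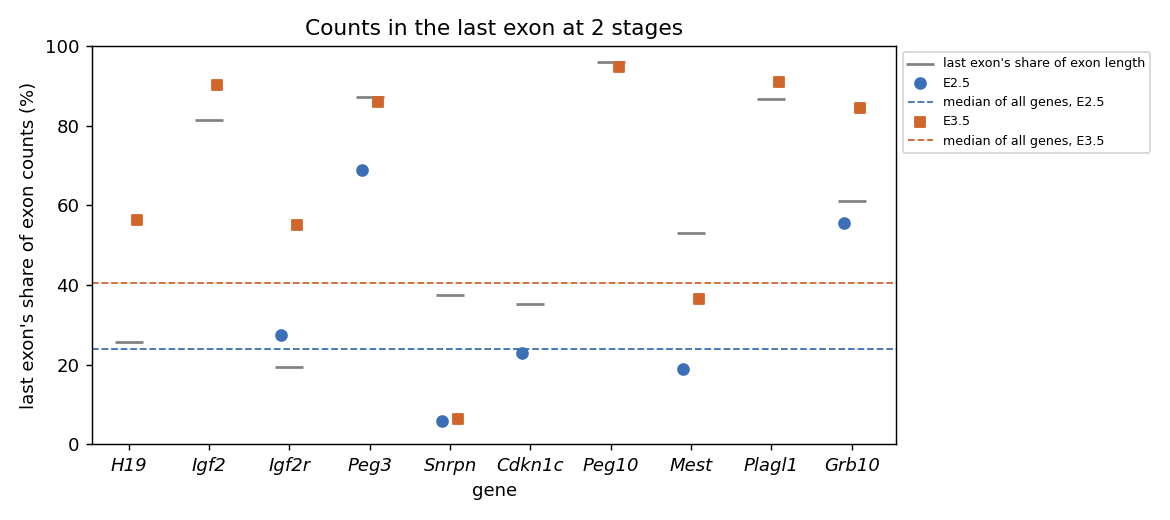
Share of each gene's exon counts that fell in its last exon (%) at E2.5 (circles) and E3.5 (squares), drawn where the exon means summed to 10 or more; grey bars give the last exon's share of exon length and dashed lines the median of all genes. The share is higher at E3.5 for Igf2r, Peg3, Mest and Grb10, as it is for the median gene (23.9% and 40.5%), and nearly level for Snrpn. Reads of Copg2 at Mest and of Peg3os at Peg3 are not separated.

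Igf2r spans chr17:12682406-12769706 on the minus strand (mm10) with 48 exons, all 48 of which had a lower mean at E3.5. The first exon, chr17:12769400-12769706, had 342.7 normalized counts at E2.5 and 13.6 at E3.5. The last exon, chr17:12682406-12684126, had 3798 and 1202. At E3.5 the exons kept between 2.18% and 31.6% of their E2.5 mean, most in the last exon. The first exon's log2 change was 3.00 below the last one's, against a median of -2.48 over 1189 genes with 20 or more exons, and 33.6% of those genes had a lower value.

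Of the 47 introns of Igf2r, 46 had a lower normalized count at E3.5, not rescaled between the stages. Introns 1, 28 and 31 kept 88.3%, 85.8% and 84.1% of their E2.5 mean, so their direction depends on the scaling. The first 2 introns together differed from the other 45 together. Introns 1 and 2 together had a mean of 464.8 at E2.5 and 520.7 at E3.5, 112.0% of the earlier value. The other 45 introns went from 322.9 to 98.6, or 30.5%. Intron 2, chr17:12740407-12748643, had 32.2 at E2.5 and 138.7 at E3.5, while intron 1, chr17:12748784-12769399, had 432.6 and 382.0. These are the introns that Airn crosses on the plus strand. Airn is a long non-coding RNA of the paternal allele, known to silence Igf2r there and to be mostly unspliced. Reads of both genes in this stretch cannot be told apart without strand. Beyond the 5′ end of Igf2r, Airn's intron at chr17:12779513-12814495, where Igf2r has no exon or intron, had a mean of 8.84 at E2.5 and 199.2 at E3.5. In the gene table Airn was listed at 1.07 and 3.06 ppm, 1.51 on the log2 scale. By its exons summed it was at 0.0307 and 0.45 ppm (3.87), so its level is uncertain, and the larger value was at E3.5 on both measures. Slc22a2 and Slc22a3, maternally expressed in placenta and further along the domain, stayed at or below 0.0782 ppm. Igf2r was thus lower at E3.5 while reads over the Airn stretch outside it were higher.

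**Figure D3:**
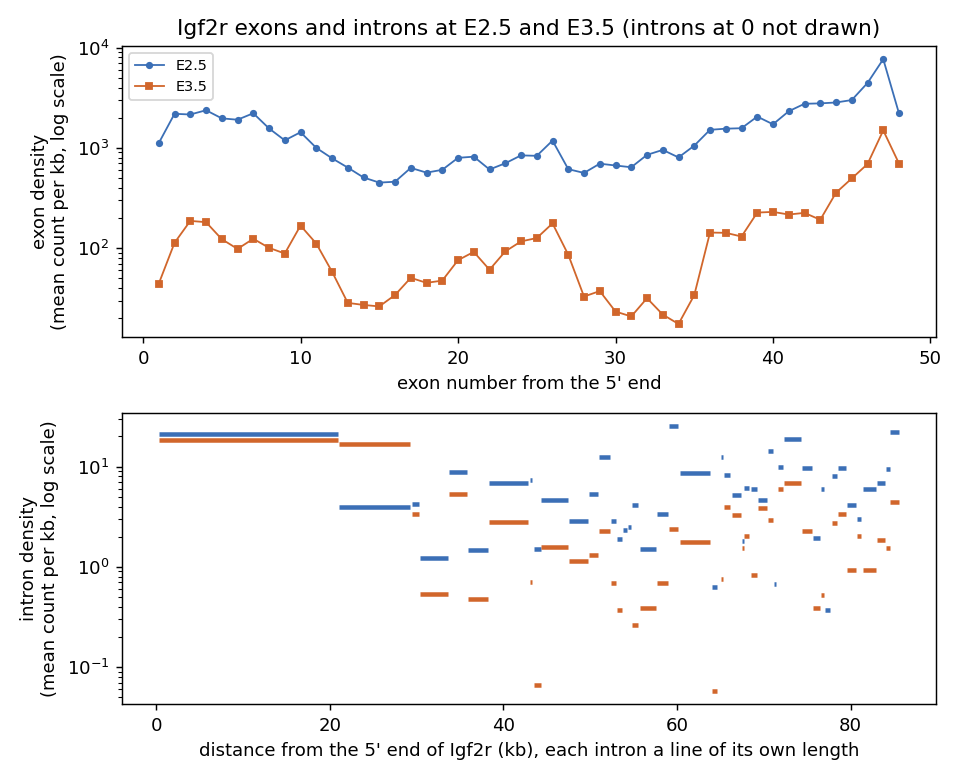
Mean normalized count per kb (log scale) of the 48 exons of Igf2r by number from the 5′ end (top) and of its introns by distance from the 5′ end in kb (bottom), E2.5 in blue and E3.5 in orange, means over all embryos of a stage. Every exon is lower at E3.5, with the gap smallest in the last exon, whereas the first intron is nearly level and the second is higher at E3.5 (32.2 and 138.7 normalized counts).

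Reads in the first exons of Igf2 differed between its starts at E3.5. The first exon behind the window at chr7:142661272-142661471, which is chr7:142660932-142661271, had a mean of 10.1 at E3.5 and 0 at E2.5. The first exon at chr7:142657388-142657496 had 0.688 at E3.5, the one at chr7:142658364-142658804 had 0.0296, and the one at chr7:142666776-142666816, the most 5′, was listed at 0. Per kb of first exon these are 29.6, 6.31, 0.0671 and 0. The start with the most CpG before it (16) was thus not the one with the most reads. The last exon of Igf2, chr7:142650768-142654052, had 0.878 at E2.5 and 72.9 at E3.5. Igf2os, which overlaps Igf2 on the other strand, was listed at 0.0195 and 1.90 ppm, or 0.458 and 51.5 normalized counts. Reads of both genes where they overlap cannot be told apart without strand, so use of each Igf2 start was not measured.

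At Mest the first exon at chr6:30738050-30738335, behind the window with 12 CpG, had 10.6 normalized counts per kb at E2.5 and 42.8 at E3.5. The more 5′ start at chr6:30733506-30733613 had 11.0 and 1.51 per kb. That more 5′ first exon held under 5 normalized counts at both stages, so the direction of its difference is uncertain. First exons were also lower at E3.5 relative to last exons in genes generally, and a change specific to this start was not tested. Of the 15 listed exons of Mest, 13 were higher at E3.5. At Grb10 the first exon at chr11:12037192-12037420, behind the window with 32 CpG, had 3.37 and 0.529, and the start at chr11:12027903-12027971 had 0 and 0.147. Both first exons of Grb10 hold under 5 normalized counts, against 143.9 and 234.1 in the last exon, chr11:11930499-11933609. Apart from that last exon and the start at 0, all of its 18 listed exons were lower at E3.5. At Snrpn the exon at chr7:60005036-60005156 had 988.8 and 237.6, and the 4 exons further 5′ had at most 1.08 at either stage.

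Peg3 spans chr7:6705960-6730419 on the minus strand with 9 exons. Its last exon, chr7:6705960-6711731, had a mean of 47.5 at E2.5 and 103.0 at E3.5. Of the 8 exons before it, 7 had a lower normalized count at E3.5, the first one at 3.45 and 1.35. Exons 3, 6 and 8 kept 94.9%, 87.2% and 87.3% of their E2.5 mean, so their direction depends on the scaling between the stages. Peg3os, whose exon lies on the other strand of the same gene, was listed at 2.00 and 33.1 normalized counts. The reads of Peg3 and Peg3os in that exon cannot be told apart. Usp29, which is paternally expressed from the promoter region it shares with Peg3, was at 19.8 and 3.26 ppm, and Zim1 was at 0.0158 at both stages.

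Introns can hold unspliced RNA, and the libraries were made from polyadenylated RNA. Intron density was read as a percent of exon density for genes with 10 or more normalized counts in exons, and the median of all genes was 1.02% at E2.5 (12343 genes) and 1.90% at E3.5 (12332 genes). Peg3, Cdkn1c and Grb10 were above it of the 6 genes measured at E2.5, and H19, Igf2r, Peg10, Mest, Plagl1 and Grb10 of the 9 at E3.5. No minimum was set for intron reads. All introns together held 0.365 normalized counts in H19 at E3.5, and 1.83 in Cdkn1c and 3.79 in Peg3 at E2.5. The place of these 3 genes against the median is therefore uncertain. Snrpn had the lowest values, 0.0202% and 0.0499%, above 0.964% and 1.15% of all genes. Its introns of 7743 and 25541 bases, next to 5′ exons with few reads, held 0.0471 and 0.484 normalized counts at E2.5. They are part of the intron length and lower these values. With the longest intron left out Snrpn had 0.0383% and 0.0929%. Peg10 had 121% at E3.5, its only intron, chr6:4747579-4754123, having 2.44 normalized counts per kb and its exons 2.02. At E2.5 that intron was listed at 0. The exons of Peg10 held 13.5 normalized counts at E3.5, near the minimum of 10. Grb10 had 7.81% at E2.5 and 4.04% at E3.5, and its intron 12, chr11:11943981-11944815, had 68.6 and 62.5 normalized counts, more than any exon other than the last. Plagl1 had 13.2% at E3.5, where its intron 3, chr10:13112551-13116695, had 9.71 of 14.6 intron counts, and Hymai, a non-coding RNA on the same strand, overlaps the gene. Reads in the first introns of Igf2r cannot be told apart from those of Airn, and when the longest intron of every gene was left out (intron 1 in Igf2r), Igf2r was below the median of all genes at E3.5.

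**Figure D4:**
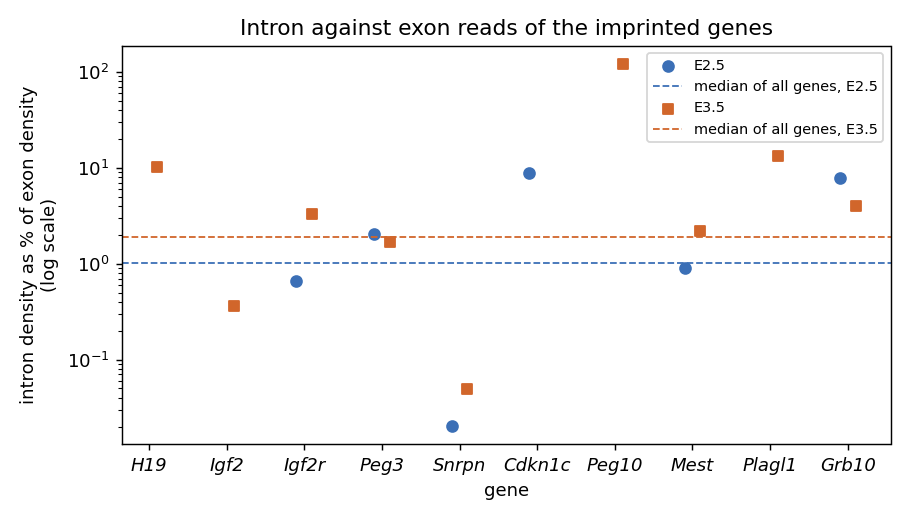
Intron density as a percent of exon density (log scale) for genes with 10 or more normalized counts in exons, E2.5 as circles and E3.5 as squares, with the median of all genes dashed (1.02% and 1.90%). Snrpn lies far below the median at both stages, Peg10 lies at 121% at E3.5, and Grb10 lies above the median at both stages.

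Of 45 other imprinted genes, 24 reached 1 ppm at either stage. Of these, 10 were higher at E3.5 by 2-fold or more, 4 were lower and 10 lay within, beside 35.1% and 18.9% of all genes, and their median log2 ratio was 0.79. The largest difference upward was in Osbpl5 (0.0232 and 1.56 ppm, log2 ratio 6.07), a lipid transfer protein. Sfmbt2, a Polycomb protein needed for the trophoblast, went from 2.11 to 51.5 ppm (4.61). Slc38a4, an amino acid transporter with a role in the placenta, went from 10.3 to 117.3, 11.3-fold, and Meg3, a maternally expressed non-coding RNA, from 1.23 to 6.18 (2.32), or from 0.403 to 4.11 by summed exon means. Phlda2, which limits placental growth, was the furthest down (7.05 and 0.833 ppm, -3.08), followed by Usp29 (-2.61), Sgce (4.43 and 1.46, -1.60) and Snurf (-1.10). Sgce is divergent from Peg10 and paternally expressed like it, and it was lower at E3.5 while Peg10 had the larger mean there. In the domain of Cdkn1c, the non-coding RNA Kcnq1ot1 was at 89.6 and 149.7 ppm (0.74), but by summed exon means at 5.09 and 23.9 ppm (2.23), so both its level and its place within 2-fold depend on the table. Cdkn1c and Phlda2 were lower at E3.5, Osbpl5 was higher, and Tssc4 and Cd81 lay within 2-fold. Among the most abundant, Gnas was at 95.8 and 71.5 ppm, H13 at 70.1 and 85.7 (0.29, or -0.12 relative to the median of all genes), and Gab1 at 28.7 and 51.7.

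**Figure D5:**
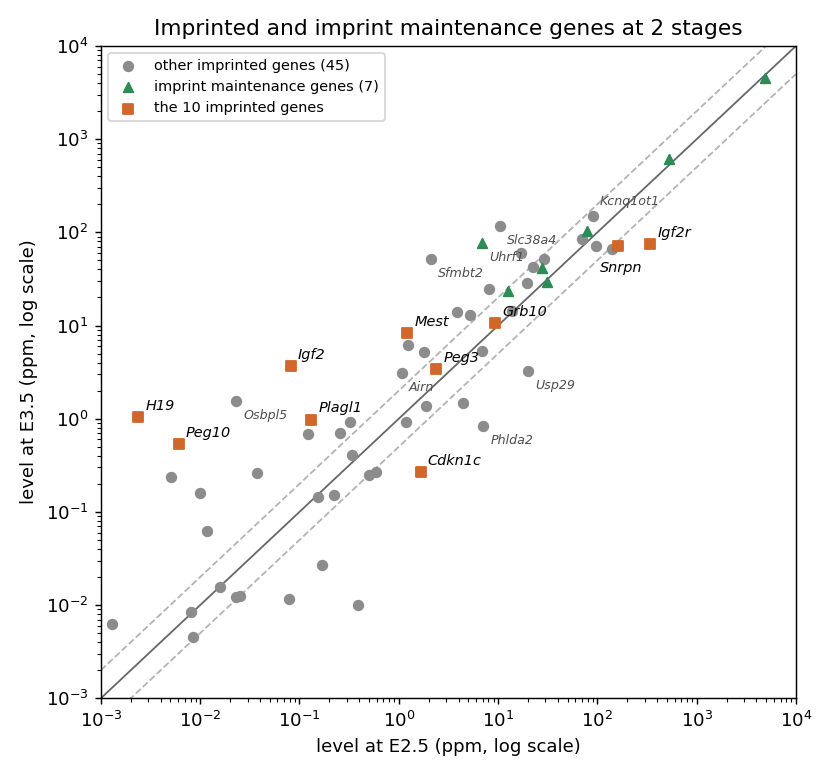
Level at E2.5 against level at E3.5, ppm on log scales, for the 10 imprinted genes (squares), 45 others (circles) and 7 imprint maintenance genes (triangles), each a mean over all embryos of a stage; the solid line marks equal levels and the dashed lines 2-fold. Slc38a4, Sfmbt2, Osbpl5 and the group of H19, Igf2, Peg10 and Plagl1 lie above the lines, Igf2r, Cdkn1c, Phlda2 and Usp29 below.

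The genes that keep imprints through this period were all present. The 7 of them stood between 6.94 and 4835 ppm at E2.5 and between 23.4 and 4495 at E3.5. Of all listed genes, 54.3% and 55.1% reached 1 ppm. Uhrf1, which brings DNMT1 to newly copied DNA, was the 1 past 2-fold, from 6.94 to 77.3 ppm (log2 ratio 3.48). It was higher, as were 35.1% of all genes tested, and none of the 7 was lower, beside 18.9%. Dnmt1, the maintenance methyltransferase, was at 27.8 and 41.8 (0.59), and the table did not separate its oocyte form. Zfp57 and Zfp445, zinc finger proteins that bind methylated control regions, had log2 ratios of 0.91 and -0.08, and Trim28, which they recruit, was at 529.7 and 610.2 ppm (0.20). Dppa3, which protects maternal methylation, was the highest at 4835 and 4495 (-0.11), and Ctcf, which insulates the H19 and Igf2 domain on the maternal allele, was at 78.9 and 102.9 (0.38). Relative to the median of all genes, Trim28 and Ctcf were on the lower side.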

How the data were processed

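Polyadenylated RNA of single embryos (31 at E2.5, 39 at E3.5) was sequenced after Smart-seq2, which does not keep strand. Per the labels and the study's methods, the authors quantified genes with Salmon 0.7.2 and exons and introns (introns shortened by 10 bases at each side) with featureCounts on mm10, and analysed them with DESeq2 1.18.1 in R 3.4.3. The deposited signal used here is the mean normalized read count of a gene, exon or intron over all embryos of a stage. The other columns hold the authors' fold changes and adjusted p-values of KO against WT, KO against HET and HET against WT, and were not used, so genotypes were not compared. The in vitro table holds no genes and was not used.

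Gene means were divided by the table total, with a minimum of 1 ppm and a 2-fold threshold (Python 3.11.15, pandas 2.3.3, numpy 2.4.6). Summed exon means and last exons were divided by their own totals, and other exon and intron means were not divided. Where exons overlapped, the longest were kept, and introns with an exon of the same gene inside were left out. Depth per embryo is unknown from these means. The text names the 10 genes, the other imprinted genes highest at each stage (5) or with the largest rise or fall (4 each), the maintenance genes, and overlapping genes. Domain neighbours and cell markers were named after their values were seen. The members and lists were chosen with earlier results of these data known. Calculations were tested on simulated data. Alternatives changed the scaling, minimum, fold, pseudocount, exons and introns used.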

Additional observations from a re-analysis of the deposited data

How the results depend on the processing

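Each value is 1 mean per stage without a spread, so no stage difference was tested, and the mix of genotypes differed between the stages. No paired analysis was possible because the result comes from no test and the columns carry no replicates. The count of imprinted genes higher at E3.5 was 3, was 0 with at least 10 ppm in either stage (H19, Igf2 and Mest then having been below the minimum), and was 5 without a minimum and 5 with the last exon alone, Peg10 and Plagl1 being added. The last-exon alternative was chosen after seeing the data. With summed exon means the levels of H19, Igf2 and Peg10 at E2.5 and of Plagl1 at both stages were below the gene table by more than 1.5 times and those of Snrpn above it, and the count stayed at 3, but H19 was below the minimum and Peg3 was past 2-fold. The count of lower genes was 3 or, at 10 ppm and at 4-fold, 2. With the median ratio of all genes set to 1, the log2 ratio of Grb10 turned to -0.22. The numbers of all genes past 2-fold, 4395 higher and 2365 lower, were 2544 and 1433 with at least 10 ppm, 6595 and 4558 without a minimum, and 2153 and 1133 at 4-fold. At E3.5, H19 (1.04 ppm) and Plagl1 (0.979) lay next to the minimum of 1. The intron counts were 3 at E2.5 under every alternative, with Mest in place of Peg3, and 4 to 6 at E3.5.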
